A study of Anser anser with 2 samples.

Results

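Small RNA of goose liver was sequenced in 1 overfed and 1 control library, and the miRNAs miR-23, miR-24 and miR-27 are described here over both. The experiment used 60 male geese aged 90 days of the Landes breed, which is raised for foie gras. Overfed geese were given a carbohydrate-rich diet with 3353 kcal, 76 g of protein and 15 g of fat per kg over 21 days, and their liver is labelled fatty. Control geese ate as much as they wished of a basal diet with 2873 kcal and 171 g of protein per kg, and their liver is labelled normal. The labels do not say how many livers went into a library. The members are all listed names with the number 23, 24 or 27, with any letter, arm or star, summed over the species they were named for. They came to 14 name and arm combinations of 1167 in all, drawn from 36 reference names. The overfed library held 5925 member reads in 286 distinct read sequences (tags), and the control library 5368 reads in 267 tags.

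The overfed library listed 9737540 miRNA reads and the control library 9178938, so 1 read was worth 0.103 and 0.109 reads per 1000000 listed miRNA reads (RPM). A floor of 3 counts for a count of 0 is 0.308 RPM in the overfed and 0.327 RPM in the control library. The upper limit of the exact Poisson 95% interval of a count of 0 is 0.379 and 0.402 RPM. miR-122-5p, a miRNA that marks hepatocytes, held 74.4% of overfed and 72.7% of control reads, so the labelled tissue was borne out by this miRNA. Of the other listed hepatocyte miRNAs, miR-148 names passed a mean of 10 RPM and no miR-192 or miR-194 name did. Each condition has a single library, so differences between overfed and control have no replicate check and were not tested. Each interval given is an exact 95% interval that covers counting error only, and reads are amplified copies without molecular identifiers. Fewer cells of a type and less RNA per cell cannot be told apart in bulk tissue.

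In vertebrates these miRNAs come from paralogous clusters, each read as a single primary transcript. One cluster carries miR-23a, miR-27a and a miR-24 hairpin, the other miR-23b, miR-27b and another miR-24 hairpin, and both miR-24 hairpins give the same 3p miRNA. In human the miR-23b cluster lies within an intron of AOPEP, an aminopeptidase gene. In the goose gene table of RefSeq (assembly bAnsAns1.hap1.1) AOPEP lies between FANCC and FBP1, the gene of a gluconeogenic enzyme. That table lists no miRNA genes, so no genome position is given for the miRNAs. miR-27 is known in human and mouse as a repressor of PPARG, the master regulator of fat cell formation, and of other genes of lipid handling. miR-24 is known in mouse liver as a repressor of INSIG1, which holds back lipid synthesis. miR-23 is known in human cells as a repressor of glutaminase. A miRNA finds its targets mainly through its seed, bases 2 to 8.

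The most common tag of each abundant arm is shown first, because the reads differ in length and the length decides which name a read is given. Sequences are read from the deposited files, 5′ to 3′, as DNA letters, with the seed in capitals.
miR-23a-3p: aTCACATTgccagggatttcca
miR-23b-3p: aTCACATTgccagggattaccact
miR-27a-3p: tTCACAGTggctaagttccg
miR-27b-3p: tTCACAGTggctaagttct
miR-27d-3p: tTCACAGTggctaagttc
miR-24-3p: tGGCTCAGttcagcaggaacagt
miR-27b-5p: aGAGCTTAgctgattggtga
miR-23b-5p: tGGGTTCCtggcatgatgattt

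Apart from miR-24c-3p, which rests on 1 overfed read and has GGTCAAG, the 3p arms fell into 3 seeds. miR-23a-3p and miR-23b-3p shared TCACATT, all miR-27 3p names shared TCACAGT, and miR-24-3p had GGCTCAG. The references of miR-23a and miR-23b have their first 18 bases in common and differ at base 19, T19A, counted from the 5′ end. Those of miR-27a and miR-27b also have 18 bases in common and differ first at base 19, C19T. Nearly all miR-27d-3p reads were listed under a reference from the fish medaka that is 18 nt long and is that shared run itself. A read that is exactly this run therefore matches miR-27d without a mismatch and cannot be assigned to miR-27a or miR-27b.

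miR-24-3p was the most abundant member, at 214 RPM in the overfed and 237 RPM in the control library, and ranked 44 among all 1167 names by mean level. miR-23a-3p stood at 133 RPM in the overfed and 131 RPM in the control library. The name miR-27d-3p, which holds the 18 nt reads, stood at 146 RPM in the overfed and 116 RPM in the control library. miR-24-3p thus held 35.1% of member reads in the overfed and 40.5% in the control library.

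The lettered names with a distinguishing base were lower. miR-23b-3p had 36.0 RPM in the overfed and 27.6 RPM in the control library. miR-27a-3p had 22.7 and 25.3 RPM, and miR-27b-3p had 20.2 and 19.8 RPM, overfed and control. Within each library, the counting intervals of miR-27a-3p and miR-27b-3p overlapped. Overlap of separate intervals does not settle their order, which was not tested. miR-27b-5p, from the other side of the miR-27b hairpin, had 21.1 RPM in the overfed and 14.6 RPM in the control library.

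The other 7 combinations were under a mean of 10 RPM, from 0.051 to 8.78 RPM. miR-23b-5p led them with 101 overfed and 66 control reads. miR-24-5p had 20 reads in each library, miR-23a-5p 20 overfed and 10 control reads, and a miR-23 star name without a letter 12 overfed and 21 control reads. miR-27c-3p had 3 overfed and 7 control reads, miR-27a-5p 2 and 1, and miR-24c-3p 1 overfed read and 0 control reads.

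**Figure D1:**
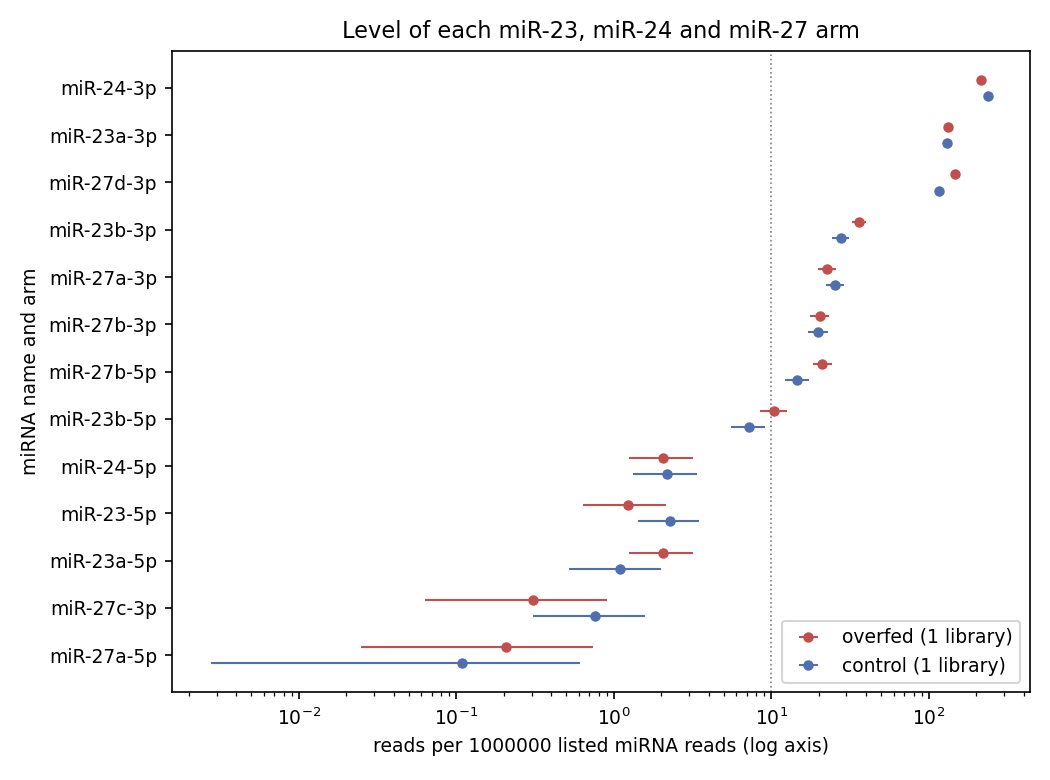
Level of each member arm with reads in both libraries, in RPM on a log axis, overfed above control. Bars are exact Poisson 95% intervals of 1 library each, and the dotted line marks 10 RPM; 7 arms lie past it in their mean, led by miR-24-3p.

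Summed within an arm over letters, the numbers came closer together. miR-24-3p had 2082 overfed and 2176 control reads, miR-27-3p 1841 and 1482, and miR-23-3p 1642 and 1458. In vertebrates each cluster transcript carries all 3 numbers, but positions in goose were not known here. With all tags counted, the summed 3p levels of the 3 numbers lay within a factor of 1.5 of each other in both libraries. This did not hold among reads of 21 nt or more. There miR-27-3p had 15.1 RPM in the overfed and 19.7 RPM in the control library, and miR-24-3p 209 and 234 RPM.

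Reads that reach the distinguishing bases show how the letters divide. Of miR-23-3p reads with at least 2 bases past the shared run, 78.5% (76.3% to 80.6%) carried the bases of miR-23a in the overfed library and 82.5% (80.4% to 84.6%) in the control library. The intervals just overlapped. Of miR-27-3p reads of that kind, 69.7% (63.5% to 75.4%) were miR-27a in the overfed and 68.9% (63.0% to 74.5%) in the control library. These rest on 241 overfed and 264 control reads. The letter a held the larger part of reads with at least 2 bases past the shared run, for both numbers in both libraries.

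The choice of reads matters for miR-27. With reads of only 1 base past the shared run included, the miR-27a share was 51.6% (46.6% to 56.6%) in the overfed and 52.3% (47.4% to 57.3%) in the control library. The difference comes from reads that end on base 19, most of them 1 tag of 19 nt, which held 59.9% of miR-27b-3p reads in the overfed and 61.0% in the control library. It is the shared run with a T, the base of miR-27b at that place, and also what an 18 nt read would become with a T added to its end. These origins cannot be told apart from the tag. The main miR-27 tags are set side by side with the bases past the shared run in capitals.
miR-27d-3p, 18 nt: ttcacagtggctaagttc
miR-27b-3p, 19 nt: ttcacagtggctaagttcT
miR-27b-3p, 23 nt: ttcacagtggctaagttcTGCAT
miR-27a-3p, 20 nt: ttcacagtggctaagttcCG
miR-27a-3p, 21 nt: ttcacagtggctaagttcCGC

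Read length set miR-27 apart from its cluster partners. Of all miR-27-3p reads, 92.0% (90.7% to 93.2%) were 18 to 20 nt long in the overfed library and 87.8% (86.0% to 89.4%) in the control library. For miR-23-3p the share was 15.5% (13.8% to 17.3%) in the overfed and 15.4% (13.5% to 17.3%) in the control library. For miR-24-3p it was 2.16% (1.58% to 2.88%) in the overfed and 1.47% (1.01% to 2.07%) in the control library. The 3 intervals lay far apart in both libraries, and each library gave the same order.

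The 18 nt length alone held 1381 of 1841 miR-27-3p reads in the overfed library and 1028 of 1482 in the control library, or 75.0% and 69.4%. Over all listed reads 18 nt made up 0.509% in the overfed and 0.373% in the control library. Only 60 overfed and 73 control miR-27-3p reads had 23 nt or more. The labels state that RNA of 20 to 30 nt was taken from the gel, so the most common miR-27 read is shorter than that range.

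**Figure D2:**
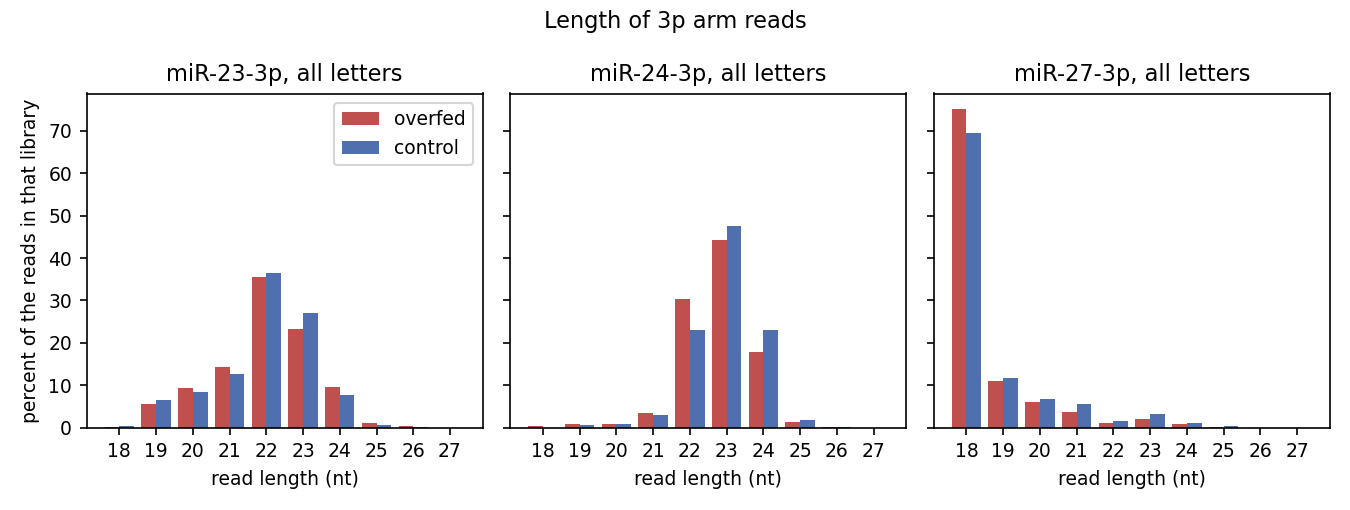
Read length of the 3p arms of miR-23, miR-24 and miR-27, letters summed, as percent of the arm's reads in each library (bars, overfed left of control, 1 library each). miR-27 peaks at 18 nt, with 75.0% of overfed and 69.4% of control reads, miR-23 at 22 nt and miR-24 at 23 nt.

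By name, 99.9% of overfed and 99.6% of control miR-27d-3p reads were 18 to 20 nt long, which follows from its 18 nt reference. The lettered names were short as well. miR-27a-3p had 64.7% (58.0% to 71.0%) short reads in the overfed and 53.9% (47.2% to 60.4%) in the control library, and miR-27b-3p 65.5% and 62.1%. miR-27b-5p, from the other arm, had 58.5% (51.5% to 65.4%) in the overfed and 54.5% (45.7% to 63.1%) in the control library, of which 88 of 120 overfed and 54 of 73 control reads were 20 nt long. miR-23b-5p had 0 short reads among 101 overfed and 66 control reads, which allows up to 3.59% and 5.44% (exact upper limit).

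Among the rest of the miRNAs short reads were uneven too. Over the 143 names and arms with a mean of at least 10 RPM, the median share was 18% in the overfed and 16.0% in the control library, and 46 overfed and 41 control names had more than 50%. With letters of each number summed within an arm, so that short references of a single letter no longer matter, miR-27-3p ranked 10 of 108 in the overfed and 9 of 108 in the control library. By the share of 18 nt reads it ranked 3 of 108 in both. miR-24-3p ranked 100 and 99. The high share of miR-27-3p was therefore near the upper end but not outside the range of the libraries. Most names above it matched their reference poorly. No read of miR-3182, miR-3966, miR-4206-3p, miR-2371, miR-4674 or miR-4154-3p was free of mismatches in either library. miR-144-3p, also above it, matched without a mismatch in 97.9% of overfed and 98.3% of control reads. miR-199-5p lay above miR-27-3p in the overfed library only, with 96.4% short reads against 84.6% in the control library. Its name miR-199a-5p matched without a mismatch in 98.7% of overfed and 97.0% of control reads. No read with bases 2 to 15 of the miR-27, miR-23 or miR-24 3p tags was listed under another number in either library.

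**Figure D3:**
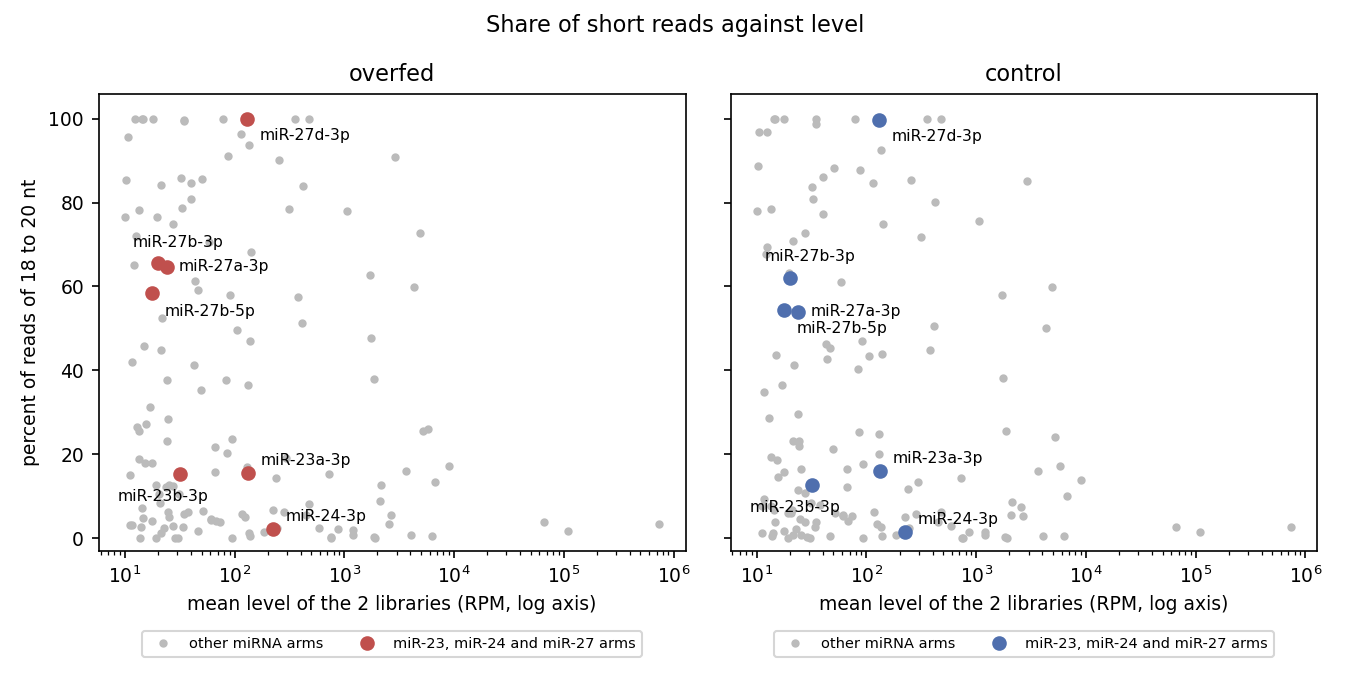
Percent of reads of 18 to 20 nt against mean level (RPM, log axis) for the 143 names and arms of at least 10 RPM, 1 panel a library with overfed left; coloured points are miR-23, miR-24 and miR-27 arms. The 4 miR-27 arms lie above 50% in both panels and miR-24-3p lies near 2%.

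miR-24-3p had the longest reads, with a mean of 22.8 nt in the overfed and 22.9 nt in the control library. Its main forms differ in the number of Ts at the 3′ end and are shown for that reason, with the bases past the 22 nt reference in capitals.
miR-24-3p, 22 nt: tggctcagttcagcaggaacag
miR-24-3p, 23 nt: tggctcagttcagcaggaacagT
miR-24-3p, 24 nt: tggctcagttcagcaggaacagTT

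Reads with T added made up 56.7% (54.5% to 58.8%) of miR-24-3p in the overfed and 65.9% (63.8% to 67.8%) in the control library. Reads that ended with the reference made up 27.5% (25.6% to 29.5%) in the overfed and 20.3% (18.6% to 22.02%) in the control library. In both cases the intervals were apart. Of all miR-24-3p reads, 39.7% in the overfed and 43.7% in the control library had 1 T added, and 15.7% (14.1% to 17.3%) and 20.6% (18.95% to 22.4%) had 2. Whether the first T is encoded in the goose hairpin or added later was not tested. The listed 23 nt reference, named for the dog, and the most common tag differ by G23T, counted from the 5′ end.

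Fewer T forms in the overfed library were also seen in most other abundant miRNAs. Of 52 names with at least 1000 reads in each library, 49 were not members. Of these 49, 36 had a lower share of the T form in the overfed library and 7 a higher one. Their median difference, overfed minus control, was -0.73 percentage points. By the same count, which takes only Ts added to the main form, miR-24-3p had 55.9% in the overfed and 64.9% in the control library. Reads of 23 nt or more made up 20.9% of all listed reads in the overfed and 24.5% in the control library. For miR-24-3p that share was 64.0% (61.9% to 66.0%) in the overfed and 72.4% (70.4% to 74.3%) in the control library. By its T share miR-24-3p ranked 2 of the 52 in both libraries.

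miR-23a-3p carried fewer T forms than miR-24-3p, 21.4% (19.2% to 23.7%) in the overfed and 23.7% (21.3% to 26.2%) in the control library, and its intervals overlapped. It ranked 15 of the 52 in both. Reads with A past the reference made up 4.88% of overfed and 4.32% of control miR-23a-3p reads, against 0.961% and 0.230% for miR-24-3p. For miR-23b-3p, reads with T past the 23 nt reference made up 26.5% of overfed and 26.5% of control reads. The next bases of these hairpins in goose were not known here. Whether the T or A past the reference is encoded or added later was not tested.

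The 5′ end, which fixes the seed, was steadier than the 3′ end. miR-24-3p reads began with the same 10 bases as the most common tag in 98.3% of overfed and 98.4% of control reads, against a median of 98.0% and 98.3% over the 52 abundant names. miR-23a-3p was less uniform. Only 90.2% (88.5% to 91.8%) of its overfed and 90.0% (88.2% to 91.7%) of its control reads began so, and 7.59% (6.21% to 9.17%) and 7.39% (5.97% to 9.01%) began 1 base earlier. Such reads carry a seed shifted by 1 base. For miR-27-3p, 3.48% (2.69% to 4.42%) of overfed and 3.04% (2.22% to 4.04%) of control reads began 1 base earlier. None of these start shares differed between the libraries beyond counting error.

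Among the 7 members past 10 RPM, miR-24-3p had the most mismatches to its listed references. Only 33.0% (30.9% to 35.0%) of its overfed and 24.8% (22.97% to 26.6%) of its control reads matched a reference without a mismatch, since its T forms were listed with 1 mismatch to the 23 nt reference. Over all listed reads the share was 95.6% in the overfed and 94.6% in the control library. miR-23a-3p stood at 96.8% and 94.8%. For miR-23b-5p 1 of 101 overfed and 0 of 66 control reads matched without a mismatch. Its most common tag differs from the human reference by C16A and equals the miR-23 star name of the zebra finch with a T at its end. The reads under both names were therefore added up in the comparison of arms.

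The 3p arm dominated in miR-23a, miR-23b, miR-24 and miR-27a in both libraries. For miR-27b this depended on the unassigned miR-27d reads. With them left out, its 5p share was 51.0% (46.0% to 56.0%) in the overfed library, where neither arm led beyond counting error. In the control library it was 42.4% (36.9% to 48.1%), so the 3p arm held the larger part. The intervals of the libraries overlapped. With tags of at least 21 nt the control share was 46.9% (38.1% to 55.9%), where neither arm led beyond counting error. With all miR-27d reads added to the 3p arm, that arm dominated in both libraries. Over all members the 5p arms held 6.08% (5.48% to 6.71%) of overfed and 4.69% (4.14% to 5.29%) of control reads. The intervals lay apart, but the value rests on the tags counted. With tags without a mismatch or gap the 5p share was 0.917% (0.610% to 1.32%) in the overfed and 1.09% (0.723% to 1.59%) in the control library, and with tags without a mismatch 5.07% (4.43% to 5.78%) and 4.40% (3.74% to 5.14%), with overlapping intervals in both cases. miR-24 had 0.951% (0.582% to 1.47%) 5p reads in the overfed and 0.911% (0.557% to 1.40%) in the control library. miR-23a had 1.53% (0.934% to 2.35%) and 0.823% (0.395% to 1.51%), and miR-27a 0.897% and 0.429%, on 2 overfed reads and 1 control read.

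miR-23b and miR-27b had higher 5p shares. miR-23b had 113 of 464 reads from the 5p arm in the overfed library, 24.4% (20.5% to 28.5%), and 87 of 340 in the control library, 25.6% (21.0% to 30.6%). These intervals lay above those of miR-23a in both libraries. Nearly all its 5p reads carry the C16A difference, and with tags without a mismatch 12 of 316 overfed reads, 3.797% (1.98% to 6.54%), and 19 of 239 control reads, 7.95% (4.85% to 12.1%), were from the 5p arm. miR-27b had 51.0% (46.0% to 56.0%) 5p reads in the overfed and 42.4% (36.9% to 48.1%) in the control library when the unassigned 18 nt reads were left out. With all miR-27d-3p reads counted as its 3p arm, the values were 11.3% (9.84% to 12.8%) in the overfed and 9.73% (8.22% to 11.4%) in the control library. Either way the interval of miR-27b lay above that of miR-27a, whose upper limit was 3.20% in the overfed and 2.37% in the control library. Reads of miR-27a-5p were listed under 1 reference name only, from the lizard Anolis, and those of miR-23a-5p under 1 from the platypus. Goose forms far from these references would not have been counted.

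**Figure D4:**
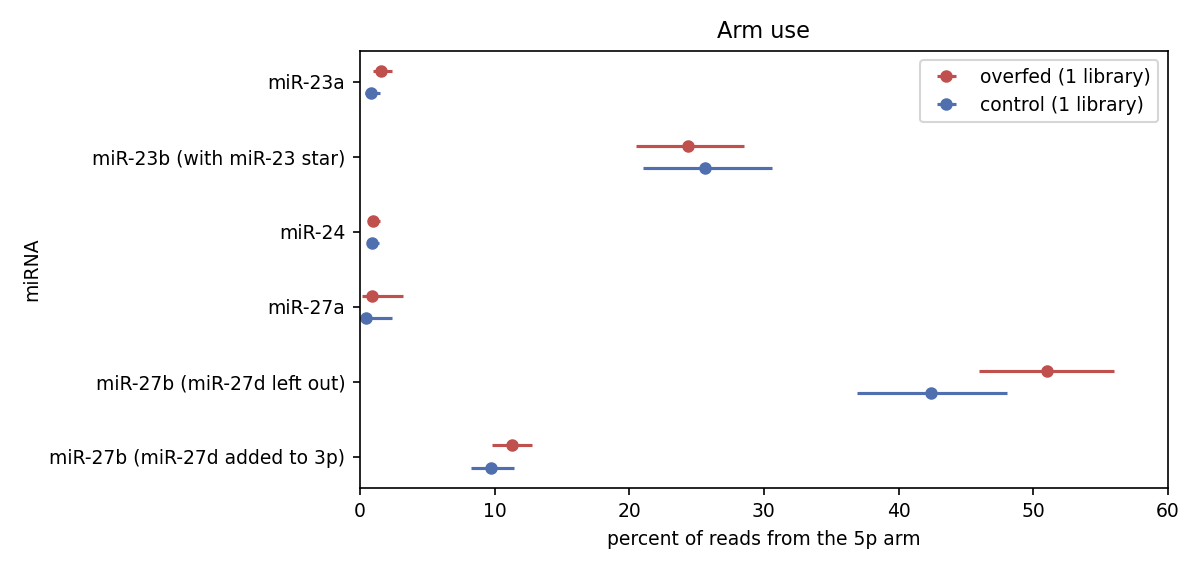
Percent of reads from the 5p arm for each miRNA, overfed above control, with exact 95% intervals of 1 library each. miR-23b lies near 25% against under 3% for miR-23a and miR-24, and miR-27b is shown with the unassigned miR-27d reads left out and with all of them added to its 3p arm.

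Between the libraries the members differed little. None of the 7 members past 10 RPM differed by 2 times or more. Of the 143 names, 6.99% reached that size upwards and 1.4% downwards, overfed against control. Beyond counting error, 3 of the 7 were higher, where 44.8% of all names were, and 1 was lower, where 32.2% were. The median log2 ratio of overfed over control was 0.029 for the 7 members and 0.078 for the 143 names. With edgeR's TMM factors, which lower all log2 ratios by 0.22, 0 of the 7 were higher, where 21.7% of all names were, and 3 were lower, where 46.9% were. Every direction below is thus bound to the scaling by total listed reads unless stated otherwise.

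The highest ratio among the 7 was that of miR-27b-5p. It had 205 overfed and 134 control reads, a log2 ratio of 0.53 (0.21 to 0.85). miR-23b-3p had 351 and 253 reads and a log2 ratio of 0.39 (0.15 to 0.63), and miR-27d-3p 1420 and 1061 reads and 0.34 (0.22 to 0.45). With TMM factors these were 0.31 (-0.013 to 0.63), 0.17 (-0.070 to 0.41) and 0.12 (-0.00075 to 0.23), each with an interval that reached 0.

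miR-24-3p was lower in the overfed library, with 2081 against 2176 control reads and a log2 ratio of -0.15 (-0.24 to -0.062). The value hangs on its T forms: with tags without a mismatch only it was 0.25 (0.084 to 0.41). Reads that end with the reference numbered 573 in the overfed and 441 in the control library, and reads with T added 1179 and 1433. miR-23a-3p had a log2 ratio of 0.014 (-0.10 to 0.13), miR-27a-3p of -0.16 (-0.43 to 0.12) and miR-27b-3p of 0.029 (-0.27 to 0.33), all with intervals that held 0. With TMM factors miR-24-3p stood at -0.37 (-0.46 to -0.28), miR-23a-3p at -0.21 (-0.32 to -0.092) and miR-27a-3p at -0.38 (-0.65 to -0.10). Those intervals lay below 0, while that of miR-27b-3p, at -0.19 (-0.49 to 0.11), held 0.

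**Figure D5:**
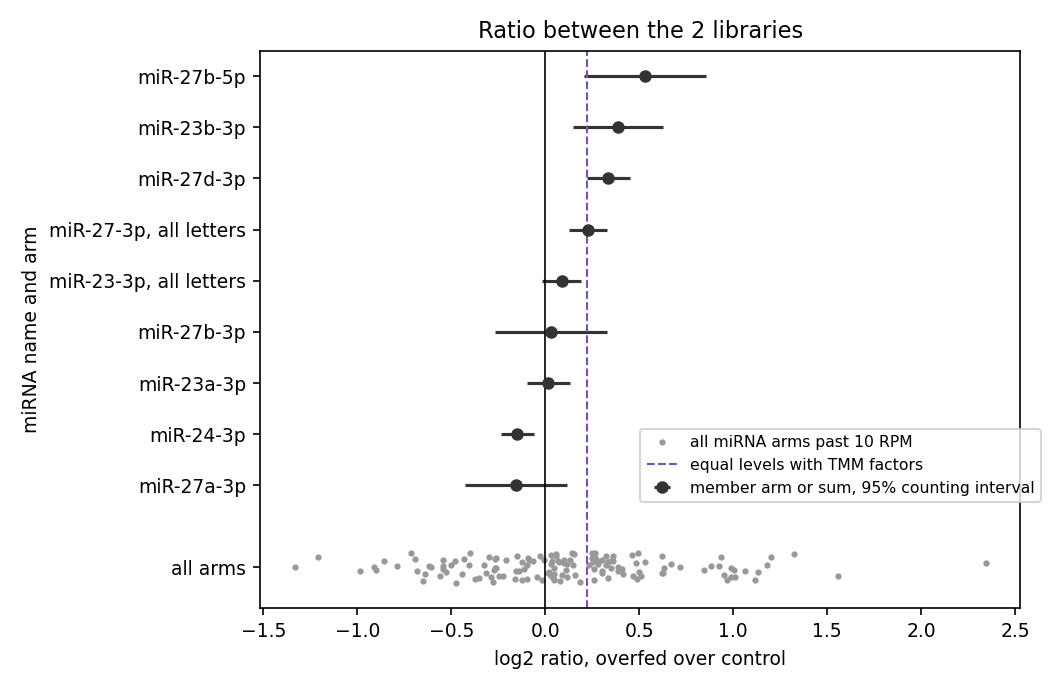
Log2 ratio of overfed over control for the 7 member arms of at least 10 RPM and for the summed 3p arms of miR-23 and miR-27, with exact 95% counting intervals, above the 143 names past 10 RPM (grey). The solid line marks equal levels by total reads and the dashed line equal levels with TMM factors; the members lie between -0.16 and 0.53.

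With letters summed, which avoids the naming of 18 nt reads, miR-27-3p had 189 RPM in the overfed and 161 RPM in the control library, a log2 ratio of 0.23 (0.13 to 0.33), and 0.0075 with TMM factors. Its ratio split by length. Reads of 18 to 20 nt stood at 174 RPM in the overfed and 142 RPM in the control library (log2 ratio 0.30, 0.19 to 0.40), and reads of 21 nt or more at 15.1 and 19.7 RPM (-0.39, -0.71 to -0.063). Over all listed reads the short class had a log2 ratio of 0.35 and the longer class one of -0.017. The short miR-27 reads thus differed between libraries by about as much as short reads of all miRNAs. How far read length sets the miR-27 ratio was not tested.

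miR-23-3p with letters summed had a log2 ratio of 0.086 (-0.016 to 0.19). Its short reads, at 0.096 (-0.17 to 0.36), and its longer reads, at 0.084 (-0.027 to 0.20), gave almost the same value. For miR-27-5p, reads of 18 to 20 nt had a log2 ratio of 0.63 (0.20 to 1.07) and those of 21 nt or more 0.40 (-0.083 to 0.90).

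Shares among the member reads do not depend on the scaling. miR-24 with both arms held 35.5% (34.3% to 36.7%) of member reads in the overfed and 40.9% (39.6% to 42.2%) in the control library. miR-27 held 34.6% (33.4% to 35.8%) in the overfed and 30.1% (28.9% to 31.4%) in the control library, and for both the intervals were apart. miR-23 held 30.0% (28.8% to 31.1%) and 29.0% (27.8% to 30.2%), which overlapped. The shares of miR-24 and miR-27 depend on the tags counted. Among tags of at least 21 nt miR-27 held 6.14% (5.40% to 6.95%) in the overfed and 6.51% (5.74% to 7.35%) in the control library, and miR-24 54.0% (52.4% to 55.6%) and 57.9% (56.3% to 59.5%). Among tags without a mismatch miR-24 held 16.1% (15.04% to 17.3%) in the overfed and 15.6% (14.4% to 16.8%) in the control library, and miR-27 47.1% (45.6% to 48.6%) and 44.7% (43.1% to 46.4%), with overlapping intervals for both. Beside these shares stands the read length of the libraries: reads of 18 to 20 nt made up 5.29% of all listed reads in the overfed and 4.15% in the control library. Its part in the shares was not tested.

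Some other miRNAs had levels like those of the members in both libraries, measured as the distance in log2 RPM over the 2 libraries. Nearest to miR-24-3p were let-7k-5p (0.16), miR-456 (0.25) and miR-30e-5p (0.42). Nearest to miR-23a-3p were miR-181a-5p (0.046), miR-22-3p (0.13) and miR-2970 (0.13). For miR-27b-3p they were miR-716b (0.082), miR-1559 (0.13) and miR-15b-5p (0.22).

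Of a list of 14 other miRNA numbers known from lipid metabolism, 19 names and arms passed 10 RPM. Beyond counting error 11 were higher and 5 lower in the overfed library, which turned to 5 higher and 10 lower with TMM factors. Over all 143 names 44.8% were higher and 32.2% lower, or 21.7% and 46.9% with TMM factors. The median log2 ratio of the listed names was 0.044. The most abundant were miR-122-5p (log2 ratio 0.034), miR-107 (0.50), miR-21-5p (0.14) and miR-128-3p (0.031). Like the members, none reached 2 times.

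Marker miRNAs of cell types are given beside these ratios. The counts are of names past 10 RPM that were higher or lower in the overfed library beyond counting error. Over all 143 names these were 44.8% and 32.2%, or 21.7% and 46.9% with TMM factors. Hepatocyte names summed to 745587 RPM in the overfed and 728323 RPM in the control library. Of their 5 names 3 were higher and 1 lower (2 and 2 with TMM factors). Names of stellate or mesenchymal cells summed to 6029 RPM in the overfed and 7276 RPM in the control library, with 1 of 8 higher and 6 lower (0 and 6 with TMM factors). Endothelial miR-126 summed to 95.5 and 87.0 RPM, with 1 of 2 higher and 1 lower (0 and 1 with TMM). Leukocyte names summed to 139 and 127 RPM, with 1 of 3 higher and 1 lower (1 and 2 with TMM).

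Red cell names summed to 318 RPM in the overfed and 360 RPM in the control library, with 1 of 4 higher and 2 lower (0 and 3 with TMM). Muscle names summed to 898 and 831 RPM, with 3 of 3 higher (2 higher and 1 lower with TMM). Epithelial names summed to 282 and 126 RPM, with 1 of 3 higher and 2 lower under both scalings. The pancreatic list, mainly miR-375, stood at 168 and 67.1 RPM, and its 1 name past 10 RPM was higher under both scalings. Neuronal names summed to 2.46 and 1.42 RPM, and none passed 10 RPM. The part of these cell types in the ratios of miR-23, miR-24 and miR-27 was not tested.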

How the data were processed

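RNA of 20 to 30 nt was cut from a 15% gel from 10 μg of total RNA, per the labels' protocols. Each deposited table gives raw read counts, not normalized, for the tags that match a known miRNA of some species, together with the reference and its mismatches. Its deposited alignment score was not used. No source used here names the aligner or the miRNA database. Listed totals are not whole library depths.

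Counts were summed over species by miRNA and arm. Names without an arm took that of the reference with the longest shared run (at least 10 bases), and unlettered names were merged into a lettered name if the references had a common run of 18 bases or more that left out at most 2 bases of the shorter. Ratios have exact conditional binomial, shares exact Clopper-Pearson and levels exact Poisson 95% intervals. The interval code was tested on simulated data. All members were named, those past 10 RPM in full; other miRNAs were named by distance in level or from lists. The members and lists were chosen with earlier results of these data known. Alternatives covered the scaling (TMM, median of ratios, totals that leave out miR-122-5p), the minimum, the size rule, the length classes and the choice of tags. Python 3.11.15, numpy 2.4.6, pandas 2.3.3, scipy 1.17.1, matplotlib 3.10.9, R 4.3.3, edgeR 4.0.16 and DESeq2 1.42.0 were used, edgeR and DESeq2 for scaling factors only.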

Additional observations from a re-analysis of the deposited data

How the results depend on the processing

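No paired analysis was possible because overfed and control livers have a single library each, which also leaves no replicate to drop. Tags without a mismatch (unpaired end bases allowed) and the shares among members under other tags were chosen after seeing the data. The log2 ratio of all member reads, 0.057, was -0.16 with TMM factors, -0.041 with median-of-ratios factors, -0.039 with tags of at least 21 nt, 0.15 when totals leave out miR-122-5p, 0.21 for tags free of mismatches and gaps and 0.19 with tags without a mismatch, so it has no settled direction. miR-24-3p turned to 0.28 with tags without a mismatch or gap and to 0.25 without a mismatch. With tags of at least 21 nt miR-27d-3p turned to -2.07, on 1 overfed and 4 control reads, and miR-27-3p with letters summed to -0.37.

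The number of members tested changed with the alternative. Against 3 of 7 members higher beyond counting error there were 0 of 7 with TMM factors. With tags of at least 21 nt there were 1 of 4, and with a minimum of 100 RPM 1 of 3. Against 1 lower there were 3 with TMM factors, 2 with tags of at least 21 nt, and 0 when totals leave out miR-122-5p, as for both sets of tags without a mismatch. No member with a mean of at least 10 RPM passed 2 times with a counting interval that excludes equal levels under any alternative. With no minimum none did so by total listed reads. There miR-27c-3p, on 3 overfed and 7 control reads, had an interval that holds equal levels. With TMM factors the unlettered miR-23 star name, under 10 RPM, did pass, at a log2 ratio of -1.11 (-2.27 to -0.023). By total listed reads no member at a mean of 10 RPM passed 1.5 times. When totals leave out miR-122-5p, the log2 ratios of miR-27b-5p, 0.62 (0.30 to 0.95), and miR-23b-5p, 0.62 (0.16 to 1.09), passed it.

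The share of 18 to 20 nt member reads, 35.7% in the overfed and 30.4% in the control library, was 29.3% and 24.9% for 18 to 19 nt, 43.6% and 37.9% for 18 to 21 nt, 53.9% and 52.1% with tags without a mismatch or gap, 48.8% and 46.0% without a mismatch, and 15.5% and 13.4% without miR-27d. The 3p share, 93.9% and 95.3%, was 99.1% and 98.9% with tags without a mismatch or gap, and 94.9% in the overfed library without a mismatch. Of the other log2 ratios under an alternative, for single members or summed letters, 74 stayed within the counting interval of the reported ratio. Another 11 lay outside it. Among these 11, with TMM factors, miR-23a-3p turned to -0.21 (-0.32 to -0.092) and miR-23-3p with letters summed to -0.13 (-0.24 to -0.031). The 74 include arms under 10 RPM, whose counting intervals were wide.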
